A study of Mus musculus with 9 samples.

Results

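The genes described here are 8 that mark interneurons of the caudal ganglionic eminence, a transient swelling at the floor of the embryonic forebrain: Sp8, Sp9, Nr2f1, Nr2f2, Prox1, Adarb2, Htr3a and Npas1. They were chosen by name, as the 8 of 37224 genes in the count table whose identifiers carry these symbols, and every member was found. Their RNA was counted in 9 mouse libraries, 3 each of embryonic fibroblasts (MEF), of fibroblasts reprogrammed toward GABAergic interneurons (iGABA) and of interneurons of the embryonic cortex (GAD67).

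All 9 samples came from C57BL/6 mice. MEF cells were primary fibroblasts of E13.5 embryos at passage P0, and their labels also mention a move to neuronal inducing medium without saying whether RNA was taken before or after it. iGABA cells were made from P0 fibroblasts and were collected at 14 days in vitro (DIV) of reprogramming, after 2 DIV in fibroblast medium and the rest in neuronal medium. GAD67 cells were primary cortical interneurons at E18.5. iGABA and GAD67 cells were dissociated with trypsin and sorted for GFP, whereas MEF cells were dissociated only, and the labels do not name what drives GFP. Sorting therefore differs between MEF and both other groups, and its share in any difference from MEF cannot be told apart from that of cell type.

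Cortical interneurons are born in the ganglionic eminences, of which the medial and the caudal supply most cells that migrate into the cortex. Caudal cells are known for the zinc-finger factors Sp8 and Sp9, the orphan nuclear receptors Nr2f1 and Nr2f2 (COUP-TFI and COUP-TFII) and the homeodomain factor Prox1, and many of them later carry the serotonin-gated channel subunit Htr3a. Adarb2 encodes a member of the RNA-editing enzyme family without known editing activity of its own, and Npas1 encodes a basic helix-loop-helix PAS repressor of developing interneurons. None of these genes is strictly limited to the caudal eminence, and Nr2f2 and Prox1 also act in mesenchyme or in lymphatic endothelium.

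Library totals ran from 27501521 to 38975523 counts. The 10 fibroblast markers listed fell in both other groups and the 10 pan-neuronal markers rose in both. The labels do not say whether the 3 replicates of a group were separate cultures or animals. The p-values set group differences only against the spread among these samples, and part of that spread may be technical. They may therefore not extend to new cultures or animals. In bulk RNA, fewer cells with a transcript and less of it per cell cannot be told apart.

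The 4 sequences below are the 250 bases before the RefSeq start of 4 members whose window lies outside their own annotated exons, to set side by side Sp8 and Adarb2, which were close to absent in iGABA cells, and Prox1 and Nr2f2, which were present there. They are on build GRCm38.p6 at chr12:118846079-118846328 (plus strand), chr13:8202616-8202865 (plus strand), chr1:190170828-190171077 (minus strand) and chr7:70366747-70366996 (minus strand). The Sp9 window shares 1 base with its own exons and the Nr2f1 window lies wholly inside its own, and neither is shown. The Npas1 window lies outside its own exons and held neither motif marked below, and it is not shown either. The 4 windows are thus a choice, not the full set. Capitals mark matches on either strand to CANNTG, the E-box read by basic helix-loop-helix factors, and to TAATT, a core read by many homeodomain factors such as the Dlx and Lhx proteins.
Sp8: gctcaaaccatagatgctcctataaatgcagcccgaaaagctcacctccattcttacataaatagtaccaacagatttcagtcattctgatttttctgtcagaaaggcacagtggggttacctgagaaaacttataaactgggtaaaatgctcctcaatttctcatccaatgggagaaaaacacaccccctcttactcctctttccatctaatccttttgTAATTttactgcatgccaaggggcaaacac
Adarb2: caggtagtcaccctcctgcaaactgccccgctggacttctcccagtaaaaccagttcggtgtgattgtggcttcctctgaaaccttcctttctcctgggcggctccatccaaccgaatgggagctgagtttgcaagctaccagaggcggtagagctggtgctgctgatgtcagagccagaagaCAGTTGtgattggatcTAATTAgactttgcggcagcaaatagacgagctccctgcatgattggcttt
Prox1: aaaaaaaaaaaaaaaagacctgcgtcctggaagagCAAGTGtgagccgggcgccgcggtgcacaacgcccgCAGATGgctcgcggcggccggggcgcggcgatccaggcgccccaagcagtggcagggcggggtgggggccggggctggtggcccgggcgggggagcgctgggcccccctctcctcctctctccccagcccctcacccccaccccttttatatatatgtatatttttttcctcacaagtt
Nr2f2: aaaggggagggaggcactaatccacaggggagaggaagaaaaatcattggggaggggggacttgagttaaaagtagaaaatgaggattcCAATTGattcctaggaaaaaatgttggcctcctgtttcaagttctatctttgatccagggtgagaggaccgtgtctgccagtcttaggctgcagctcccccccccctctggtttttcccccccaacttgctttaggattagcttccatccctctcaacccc

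The Sp8 window held 1 TAATT, 30 bases before the start, and no CANNTG. In Adarb2, TAATT matches on both strands overlapped at 51 and 50 bases before the start, and CANNTG lay at 67. Prox1 had CANNTG at 215 and 179 bases and Nr2f2 at 161 bases, and neither had TAATT. Windows were found for 7 of the 8 members. Of the others, Sp9 had TAATT at 202 and 191 bases, and Npas1 and Nr2f1 had neither motif. The Nr2f1 window lies wholly inside its own exons, 884 bases from the gene's 5′ end in the table, and so is not an upstream window like the others. Over 32851 windows of this length, 66.2% held CANNTG and 25% held TAATT. The windows also differed in composition, with 1 CG dinucleotide in Sp8, 7 in Adarb2, 20 in Prox1 and 1 in Nr2f2 against a median of 6 over all windows. Both motifs were chosen with the members' values known, and a match is a description of letters, not a site.

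In outline, the 8 genes were all abundant in GAD67 cells and behaved in several ways in iGABA cells. Htr3a passed its GAD67 level, and Prox1 and Nr2f2 reached more than 50% of theirs. Prox1 stood at 141.5 times its MEF level there, and Nr2f2 at 2.06 times. Npas1 and Nr2f1 stayed under 5% of their GAD67 levels, and Sp8, Sp9 and Adarb2 were near the limit of detection. Levels are given as normalised CPM, which are counts scaled to a common library size after TMM scaling. A gene is said to rise, fall or be called where the adjusted p of the edgeR quasi-likelihood test over all tested genes was under 0.05.

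**Figure D1:**
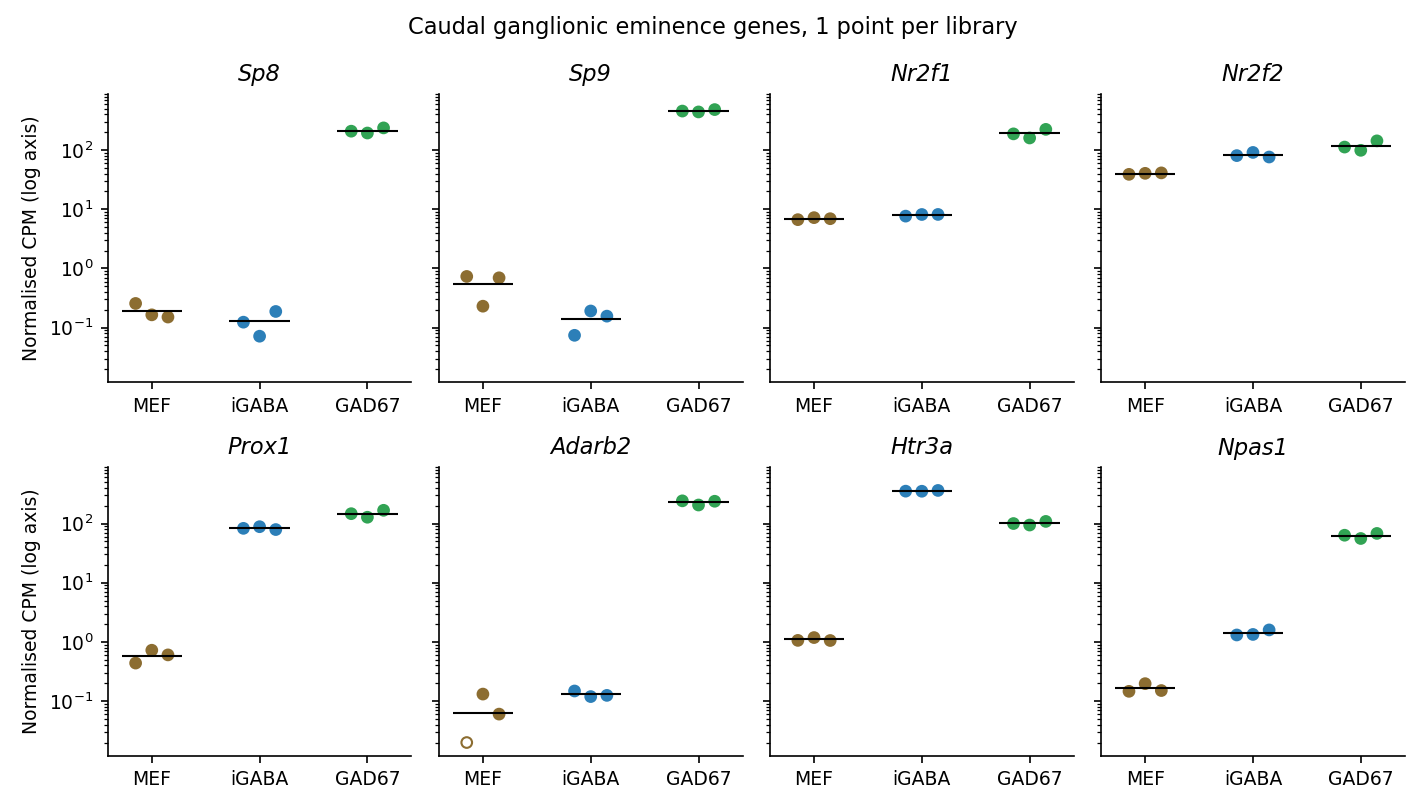
Normalised CPM (log axis) of the 8 genes in each of the 9 libraries, with a line at each group mean; the open point at the foot of the Adarb2 panel is a library with 0 counts. Sp8, Sp9 and Adarb2 stand under 1 CPM in every MEF and iGABA library, and Htr3a is the gene whose iGABA points lie above its GAD67 points.

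Sp8 (ENSMUSG00000048562, mm10 chromosome 12, 118846329 to 118852578), a zinc-finger factor of dorsal lateral and caudal eminence progenitors and their young neurons, read 0.256, 0.165 and 0.151 CPM in the MEF libraries. In iGABA it read 0.124, 0.0717 and 0.188 CPM, from 5, 3 and 6 counts. In GAD67 it read 208, 194 and 236 CPM. MEF and iGABA overlapped, and every GAD67 library lay far above both. Between iGABA and MEF the log2 fold change was -0.60 with a 95% interval of -1.69 to 0.49 (edgeR, adjusted p = 0.284), so no change was called and neither a loss nor a modest gain was outside the interval. The iGABA mean was 0.0601% of the GAD67 mean, a log2 difference of -10.72 (-11.06 to -10.38, edgeR adjusted p = 1.2e-14). That difference ranked 11 from the bottom of 18085 tested genes. Sp8 passed the low-count filter only through its GAD67 counts, so the direction of this difference followed from the filter.

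Sp9 (ENSMUSG00000068859, chromosome 2, 73271925 to 73284706), the paralog of Sp8 with a role in striatal and cortical interneuron development, read 0.732, 0.230 and 0.695 CPM in MEF. It read 0.0742, 0.191 and 0.156 CPM in iGABA, and 455, 439.5 and 481.5 CPM in GAD67. The MEF and iGABA libraries did not overlap, although the lowest MEF value stood close to the highest iGABA value, and both groups were far under GAD67. Sp9 was the member that fell between MEF and iGABA, with a log2 fold change of -1.95 (-2.91 to -0.98, edgeR, adjusted p = 0.00126). That fall went from 50 counts in all MEF libraries to 16 in all iGABA libraries. Sp9 passed the low-count filter only through its GAD67 counts. It was not tested in the fit of MEF and iGABA alone, so the call rests on the fit of all 9 libraries. Against GAD67 the log2 difference was -11.64 (-12.03 to -11.25), and its direction followed from the filter. The iGABA mean was 0.0307% of the GAD67 mean, the lowest share of any member.

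Within each library, the balance of the pair was measured as the log2 ratio of Sp9 to Sp8 per kilobase of exon, which does not depend on library scaling. In GAD67 it was 0.94 ± 0.079 (SD, n = 3), so Sp9 was 1.92 times as abundant per length. In MEF it was 1.23 ± 0.864 and in iGABA -0.03 ± 1.13. At these counts the ratios of the 3 groups overlapped, and no difference in balance was detectable.

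Nr2f1 (ENSMUSG00000069171, chromosome 13, 78188973 to 78199757) encodes COUP-TFI, which patterns cortical areas and acts in interneuron precursors. It read 6.66, 7.21 and 6.92 CPM in MEF, 7.65, 8.15 and 8.16 CPM in iGABA, and 187, 160 and 223 CPM in GAD67. The iGABA libraries lay just above the MEF libraries without overlap, and GAD67 stood far above both. The log2 fold change from MEF to iGABA was 0.20 (-0.08 to 0.48, edgeR adjusted p = 0.160), which was not called. Scaled by library size alone it was 0.62 (adjusted p = 0.000548), with only both compared groups in the fit 0.215 (adjusted p = 0.0457), and without GAD67 replicate 9 0.206 (adjusted p = 0.0438), each of which passed the threshold. The iGABA level was 4.2% of the GAD67 level (log2 difference -4.57, -4.82 to -4.32, edgeR adjusted p = 7.07e-13).

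Nr2f2 (ENSMUSG00000030551, chromosome 7, 70351946 to 70366735) encodes COUP-TFII, which steers caudal interneuron migration and is also a factor of mesenchyme and veins. In MEF it read 38.8, 40.4 and 41.1 CPM. The iGABA libraries read 80.4, 91.0 and 76.1 CPM and the GAD67 libraries 112, 98.8 and 143 CPM. The 3 groups followed each other in that order without overlap. Nr2f2 rose in iGABA by 1.04 on the log2 scale (0.79 to 1.29, edgeR adjusted p = 2.05e-06), a 2.06-fold difference, and remained at 70.0% of GAD67 (log2 difference -0.51, -0.75 to -0.27, adjusted p = 0.000836). The GAD67 level was 2.94 times that of MEF, the smallest such ratio among the members.

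The 2 COUP-TF genes exchanged places between groups. Per kilobase, Nr2f2 exceeded Nr2f1 by a log2 ratio of 2.50 ± 0.0428 in MEF and 3.33 ± 0.132 in iGABA, which are 5.66-fold and 10.1-fold. In GAD67 the log2 ratio was -0.73 ± 0.0479, which puts Nr2f2 at 0.605 of Nr2f1. The libraries of the 3 groups did not overlap in this ratio, and the iGABA libraries lay farther from GAD67 than the fibroblasts did.

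**Figure D2:**
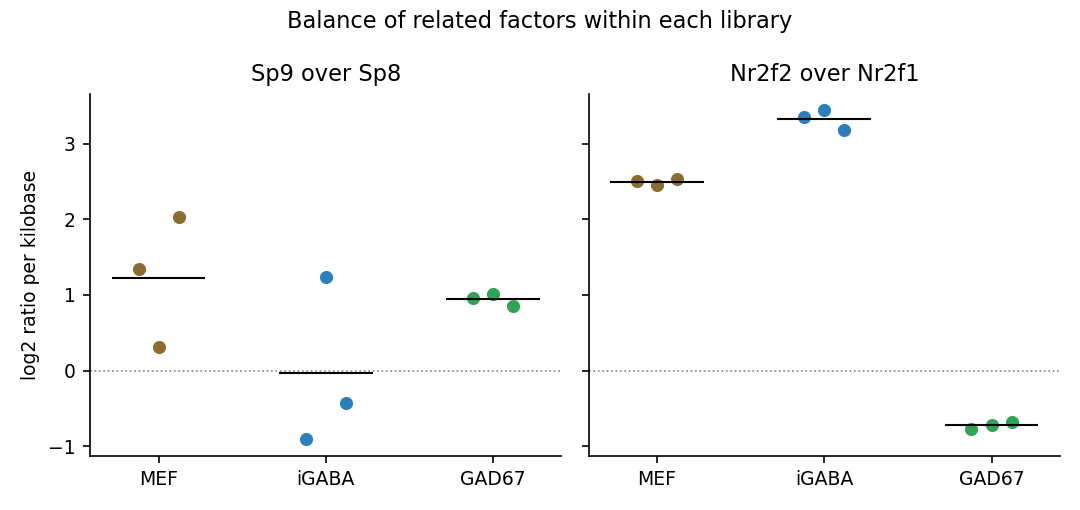
Log2 ratio per kilobase of exon of Sp9 to Sp8 (left) and of Nr2f2 to Nr2f1 (right), 1 point per library with a line at each group mean. The Nr2f2 to Nr2f1 ratio is above 0 in the 6 MEF and iGABA libraries and below 0 in the 3 GAD67 libraries, whereas the Sp9 to Sp8 ratios of MEF and iGABA scatter around the tight GAD67 values.

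Prox1 (ENSMUSG00000010175, chromosome 1, 190118038 to 190170680) encodes a homeodomain factor that postmitotic caudal interneurons need to reach their layer and mature. It read 0.439, 0.724 and 0.604 CPM in MEF, 82.8, 88.3 and 79.0 CPM in iGABA, and 146.5, 128 and 167 CPM in GAD67. All 3 iGABA libraries were far above MEF and below every GAD67 library. Prox1 rose 141.5-fold from MEF to iGABA, a log2 fold change of 7.12 (6.79 to 7.46, edgeR adjusted p = 2.17e-13). The iGABA mean was 56.7% of the GAD67 mean (log2 difference -0.82, -1.01 to -0.62, adjusted p = 1.82e-06).

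Prox1 is also a factor of lymphatic endothelium, liver and lens. Of 10 endothelial and lymphatic markers, Lyve1, Ccl21a and Cdh5 had no count in any iGABA library, and the summed level of the list in iGABA was 2.245 to 4.88 CPM. These markers were low in MEF as well, with 5, 3 and 29 counts over the 3 libraries, and 228.5 of the mean MEF sum of 249 CPM came from Flt1 alone. In GAD67 the list summed to 10.45 to 41.4 CPM, with Lyve1 and Ccl21a at 0 counts. The 6 liver and lens markers stayed at or under 0.0938 CPM in sum in every library. The antisense gene Prox1os shares 133 exon bases (1.6%) with Prox1 on the opposite strand. It had 0 counts in MEF, 12, 8 and 8 counts in iGABA and 305, 285 and 258 counts in GAD67, so iGABA stood at 0.246 ± 0.053 CPM and GAD67 at 7.545 ± 0.253 CPM (log2 difference -4.92, edgeR adjusted p = 1.61e-09). The difference of the antisense gene between iGABA and GAD67 was thus wider than that of Prox1 itself, and the strand setting of the counting is not given in the sources used here.

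Npas1 (ENSMUSG00000001988, chromosome 7, 16455721 to 16476780), which in the forebrain marks interneurons of the caudal and medial eminences and pallidal neurons, read 0.147, 0.197 and 0.151 CPM in MEF. It read 1.31, 1.34 and 1.60 CPM in iGABA and 63.4, 55.8 and 68.0 CPM in GAD67. The groups were ordered MEF, iGABA and GAD67 without overlap. Npas1 rose 8.58-fold in iGABA (log2 3.06, 2.49 to 3.63, edgeR adjusted p = 1.59e-07), from 15 to 160 counts summed over libraries. It stayed at 2.27% of GAD67 (log2 difference -5.47, -5.72 to -5.22, adjusted p = 1.4e-13).

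Adarb2 (ENSMUSG00000052551, chromosome 13, 8202866 to 8768747), known as ADAR3 and in adult cortex a broad marker of caudal interneuron classes, had 0, 4 and 2 counts in MEF and 6, 5 and 4 counts in iGABA. The count of 0 allows up to 3 counts, or 0.110 CPM, in that library. In CPM, MEF read 0, 0.132 and 0.0604, iGABA 0.148, 0.119 and 0.125, and GAD67 241, 205 and 237.5. MEF and iGABA overlapped at the edge of detection and GAD67 was far above. From MEF to iGABA the log2 fold change was 0.95 (-0.50 to 2.40, edgeR adjusted p = 0.201), which was not called, and leaving out 1 library moved it between 0.457 (without MEF replicate 1, adjusted p = 0.524) and 1.875 (without MEF replicate 2, adjusted p = 0.0566). The iGABA mean was 0.0574% of GAD67 (log2 difference -10.72, -11.08 to -10.37, adjusted p = 1.56e-14). GAD67 over MEF was 11.68 on the log2 scale, the highest of the 8 and 15 from the top of all tested genes. It was 11.19 without MEF replicate 1 and 12.61 without MEF replicate 2. Adarb2 passed the low-count filter only through its GAD67 counts, so the direction of both differences from GAD67 followed from the filter.

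Htr3a (ENSMUSG00000032269, chromosome 9, 48899214 to 48911099) encodes the serotonin-gated cation channel subunit that labels most caudal interneurons of the adult cortex. It read 1.06, 1.19 and 1.06 CPM in MEF, 352, 351 and 362 CPM in iGABA, and 99.9, 94.3 and 108.5 CPM in GAD67. Every iGABA library exceeded every GAD67 library, and MEF was lowest. Htr3a rose 322-fold from MEF to iGABA, a log2 fold change of 8.33 (8.13 to 8.53, edgeR adjusted p = 2.26e-15), which ranked 148 from the top of all tested genes. Against GAD67 it was 3.515-fold higher in iGABA (log2 difference 1.81, 1.69 to 1.94, adjusted p = 7.01e-12), the single member above its interneuron level.

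The channel can assemble from Htr3a alone, and Ric3 encodes a chaperone that helps serotonin-gated and nicotinic receptors to assemble. Ric3 rose in iGABA from 0.460 ± 0.142 to 54.1 ± 3.43 CPM (SD, n = 3; log2 6.89, edgeR adjusted p = 3.75e-14). GAD67 cells had 53.5 ± 0.162 CPM, and the log2 difference of iGABA from GAD67 was 0.02 with a 95% interval of -0.13 to 0.17 (adjusted p = 0.83). Scaled by library size alone that difference was 0.21 (adjusted p = 0.0117). Htr3b, the second subunit gene, had 0 counts in MEF and GAD67 and 0.100 CPM in iGABA.

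**Figure D3:**
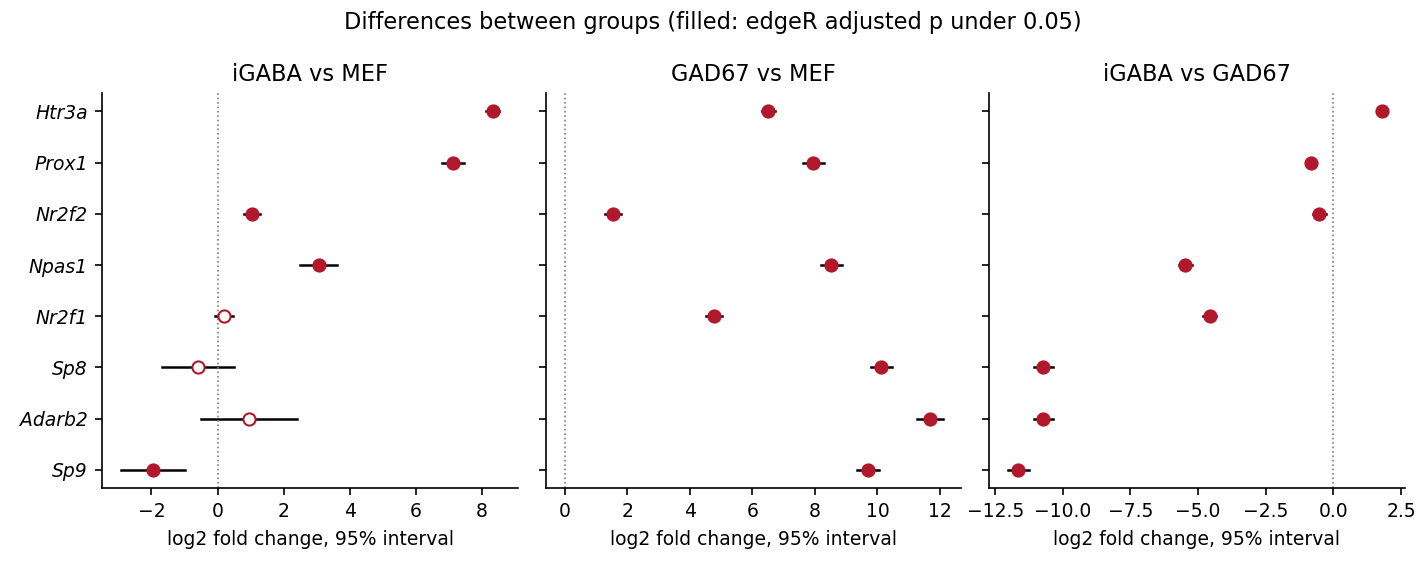
Log2 fold change with 95% interval (edgeR) of each gene in the 3 comparisons; filled points passed an adjusted p under 0.05. From MEF to iGABA the values run from -1.95 (Sp9) to 8.33 (Htr3a), from MEF to GAD67 all 8 lie above 0, and from GAD67 to iGABA Htr3a alone lies above 0.

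Counted by comparison, 4 of 8 members rose from MEF to iGABA (Nr2f2, Prox1, Htr3a and Npas1), 1 fell (Sp9) and 3 were not called, where edgeR called 81.9% of all tested genes, 42.1% higher and 39.7% lower. Of these, Prox1 and Htr3a rose by 16-fold or more, as did 5.53% of all tested genes. From MEF to GAD67 all 8 rose, where 86.9% of tested genes were called and 43.1% rose, and 7 rose by 16-fold or more, against 7.01%. From GAD67 to iGABA 7 were lower and 1 higher, where 80.6% of tested genes were called, 39.3% lower and 41.3% higher, and 5 were lower by 16-fold or more, against 3.68%. The median log2 fold change of the members was 0.998 from MEF to iGABA, 8.24 from MEF to GAD67 and -5.02 from GAD67 to iGABA, where the medians of all tested genes were 0.05, 0.00 and 0.02. Each pair of these comparisons shares a group of libraries, so they are not independent. Most listed genes of the medial and lateral eminences also rose from MEF to GAD67, as given below, so that rise was not particular to the members. All 8 members passed the low-count filter over 9 libraries, and Sp8, Sp9 and Adarb2 passed it only through their GAD67 counts. For these 3 genes the direction of the differences from GAD67 therefore followed from the filter.

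Within a group, the members were ordered by level per kilobase of exon. In MEF, Nr2f2 stood first at 8.24 CPM per kilobase, followed by Nr2f1 at 1.46 and Htr3a at 0.529. The other members were at or under 0.110, and the neighbours Sp9, Npas1, Prox1 and Sp8 overlapped between libraries. In iGABA the order was Htr3a at 170 CPM per kilobase, Nr2f2 at 17.0, Prox1 at 10.02, Nr2f1 at 1.68 and Npas1 at 0.677, each pair without overlap, with Sp8 at 0.0285, Sp9 at 0.0279 and Adarb2 at 0.0136 below them. Sp8 overlapped Sp9 and Sp9 overlapped Adarb2, whereas Sp8 lay above Adarb2 in every library, at 3 to 8 counts each. In GAD67 the whole set lay between Sp9 at 90.9 and Prox1 at 17.7 CPM per kilobase. There the neighbours Htr3a and Sp8, Sp8 and Nr2f1, Npas1 and Nr2f2, and Nr2f2 and Adarb2 overlapped.

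The make-up of the summed level per kilobase changed with the group. Nr2f2 took 78.2% of the sum in MEF, Htr3a took 85.3% in iGABA, and in GAD67 the largest share was 28.2% for Sp9, with Htr3a at 15%. Summed per kilobase, the members reached 10.5 CPM in MEF, 199.8 CPM in iGABA and 322 CPM in GAD67, so the iGABA sum was mostly a single gene.

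The GAD67 libraries differed among themselves in these genes. All 8 members were lowest in GAD67 replicate 8, and 7 were highest in replicate 9, the exception being Adarb2, which was highest in replicate 7. Of all tested genes, 37.8% were lowest in replicate 8 and 40.2% highest in replicate 9. The ratio of the highest to the lowest library ran from 1.096 for Sp9 to 1.44 for Nr2f2. In the other direction, Sst, a peptide of medial-eminence interneurons, read 27.97, 34.9 and 10.2 CPM in replicates 7, 8 and 9, and Nkx2-1, the factor that defines the medial eminence, read 19.6, 25.1 and 10.9 CPM. Reln, which is on the list of other caudal-derived genes given below, read 44.4, 48.9 and 26.6 CPM. These 3 genes were picked after their values were seen, and of 12 medial-eminence genes with counts 5 were lowest and 7 highest in replicate 8. The other caudal-derived genes did not follow the members. Of 10 of them, 3, 4 and 3 were lowest and 1, 4 and 5 highest in replicates 7, 8 and 9. Their sums were 338.2, 336.6 and 338.9 CPM. Some markers of other cells did move with the members. All 8 endothelial markers with counts were lowest in replicate 8 and highest in replicate 9, where they summed to 23.6, 10.45 and 41.4 CPM in replicates 7, 8 and 9. Of 9 glutamatergic cortical neuron markers, 8 were lowest in replicate 8 and 8 highest in replicate 9, with sums of 57.1, 46.5 and 76.9 CPM. Their part in the spread of the members was not tested.

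**Figure D4:**
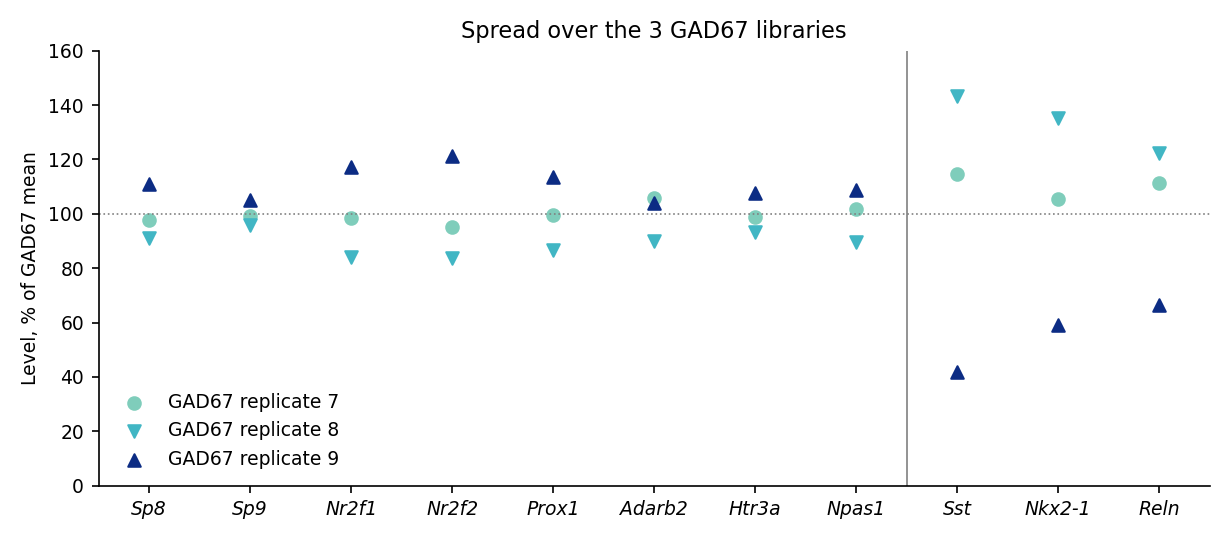
Level of each member, and of Sst, Nkx2-1 and Reln to the right of the line, in each of the 3 GAD67 libraries as a percentage of the GAD67 mean. Replicate 8 is lowest for all 8 members, between 83.8% and 95.9% of the mean, and highest for the 3 genes on the right.

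Other genes of caudal-eminence-derived interneurons were read from a list of 12, of which 10 were tested and Vip and Lamp5 had too few counts. From MEF to iGABA 5 rose and 5 fell (median log2 -0.77), and from MEF to GAD67 6 rose and 4 fell (median 1.54). From GAD67 to iGABA 2 were higher, 7 lower and 1 not called, with a median of -2.98, or -3.96 without Sncg, which had too few counts in both groups. Npy2r, a neuropeptide Y receptor gene, stood at 142 ± 7.29 CPM in iGABA and 2.37 ± 0.259 CPM in GAD67 (log2 5.90, edgeR adjusted p = 1.01e-14). Id2, a helix-loop-helix inhibitor expressed by neurogliaform cells, stood at 198 ± 3.37 and 38.1 ± 3.17 CPM (log2 2.38, adjusted p = 1.12e-12). At the other end, the neuropeptide gene Cck had 4 counts over the 3 iGABA libraries and read 2.84 ± 0.505 CPM in GAD67. The synaptic vesicle gene Synpr read 0.469 ± 0.137 CPM in iGABA and 28.1 ± 1.32 CPM in GAD67. Calb2, a calcium-binding protein gene with the largest rise of the list from MEF to GAD67, read 1.25 ± 0.0633 CPM in iGABA and 22.2 ± 2.56 CPM in GAD67. Of all tested genes, 41.3% were higher and 39.3% lower in iGABA than in GAD67.

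Most listed genes of the other eminences were also lower in iGABA than in GAD67. Of 12 genes shared by the eminences or needed for GABA, 9 were lower and 3 higher, with a median log2 difference of -2.99. Of 13 medial-eminence genes 11 were lower and 2 higher (median -3.05), and of 12 lateral-eminence genes 11 were lower and 1 not called (median -3.20). Six3, a lateral-eminence homeodomain factor, had 5 counts over the 3 iGABA libraries and 159 ± 7.40 CPM in GAD67, and Pax6 had 5 counts and 57.1 ± 3.27 CPM. Six3 and Pax6, and Nkx2-1 and Sst of the medial list, passed the low-count filter only through their GAD67 counts. The direction of their differences from GAD67 therefore followed from the filter. A lower level in iGABA was seen outside the caudal genes too, in part among genes kept in this way. A rise from MEF to GAD67 was also common in these lists. It was called for 11 of the 12 shared genes, 12 of the 13 medial genes and all 12 lateral genes. The shared and the medial list each had 1 gene not called, and no gene of the 3 lists was called lower. No test compared these lists with each other.

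**Figure D5:**
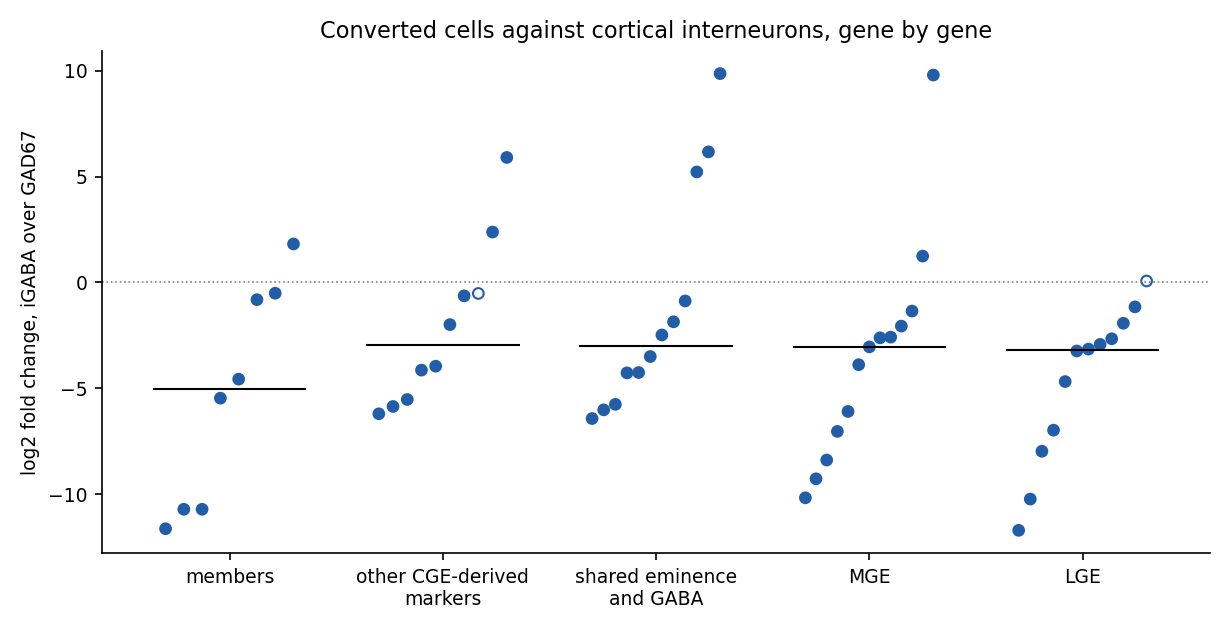
Log2 fold change of iGABA over GAD67 (edgeR) for the 8 members and for the tested genes of 4 lists, 1 point per gene, with a line at each median; open points were not called. Every list has its median between -5.02 and -2.98, and points of genes with a few counts or none in 1 group are estimates that depend on the fit.

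Relatives of the members were read to see whether other genes of their families stood where the members did not. Of 19 tested relatives, 8 rose and 8 fell from MEF to iGABA, and from GAD67 to iGABA 8 were higher and 9 lower. Those named next were picked from this list with their values known. Beside the low levels of Sp8 and Sp9 in iGABA, their relative Sp4 rose from 11.2 ± 0.815 to 33.4 ± 0.489 CPM from MEF to iGABA and stayed below its GAD67 level of 114 ± 9.07 CPM (log2 difference -1.77, edgeR adjusted p = 5.07e-11). Sp5 rose from 0.0311 ± 0.0302 CPM in MEF and read 3.44 ± 0.200 CPM in iGABA against 0.587 ± 0.385 CPM in GAD67 (log2 2.53, edgeR adjusted p = 2.08e-05). Sp6 rose from 0.64 ± 0.21 CPM in MEF to 4.07 ± 0.38 CPM in iGABA, against 0.32 ± 0.033 CPM in GAD67. Sp7 went the other way, from 1.65 ± 0.35 CPM in MEF to 0.17 ± 0.048 CPM in iGABA, against 0.47 ± 0.16 CPM in GAD67. The third COUP-TF gene, Nr2f6, read 48.5 ± 1.03 CPM in MEF, 66.9 ± 1.26 CPM in iGABA and 13.2 ± 0.274 CPM in GAD67 (log2 2.34, adjusted p = 3.98e-13). Of the RNA-editing enzymes, Adar rose from 57.5 ± 2.28 to 131 ± 5.18 CPM in iGABA, and Adarb1 fell from 66.0 ± 7.77 to 39.7 ± 0.372 CPM, so the catalytic members of the family were present where Adarb2 was not detected above a few counts. Npas3, the closest relative of Npas1, was at 2.58 ± 0.371 CPM in iGABA and 69.2 ± 12.6 CPM in GAD67.

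Known protein partners were also read, as a list of 10, of which 6 rose and 3 fell from MEF to iGABA, and 3 were higher, 5 lower and 2 not called in iGABA against GAD67. Bcl11a and Bcl11b, zinc-finger proteins that bind COUP-TF receptors, rose by 2.57 and 3.07 on the log2 scale, and stayed below GAD67 by log2 differences of -3.52 and -1.93. Arnt2, with which Npas1 can pair, fell from 58.3 ± 0.996 to 32.9 ± 0.460 CPM in iGABA, where GAD67 had 663 ± 92.2 CPM (log2 difference from GAD67 -4.33, edgeR adjusted p = 2.09e-13). The cofactor gene Zfpm1 was the highest of the list against GAD67, at 74.25 ± 2.19 CPM in iGABA and 2.35 ± 0.318 CPM in GAD67 (log2 4.97, edgeR adjusted p = 6.77e-14). Arnt, the more widely expressed relative of Arnt2, fell from 182 ± 5.41 to 92.0 ± 2.37 CPM.

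The genes whose pattern over the 9 libraries was most like each member were found by root-mean-square distance of mean-centred log2 CPM among 14989 genes. Sp8 lay nearest to Pou3f2 (0.635), and Sp9 was among its 3 nearest at 0.707. Sp9 lay nearest to Sp8, and Six3 was among the 3 nearest of Sp8 (0.674), Sp9 (0.912) and Adarb2 (0.421). These genes had few counts or none in MEF and iGABA libraries, so their distances depend on the prior count of 2 used for log2 values. Nr2f1 lay nearest to Grip1 (0.160) and Dcc (0.175), and Nr2f2 nearest to Zfp426 (0.0746) and Nkrf (0.0813). Prox1 was closest to Slit1 (0.175), a guidance ligand gene at 1.17, 172 and 240 CPM in MEF, iGABA and GAD67. For Htr3a the nearest were Grm4 (0.209), a metabotropic glutamate receptor gene, Mfng (0.214) and Chgb (0.254), which were likewise highest in iGABA, and Npas1 lay nearest to Hfm1 (0.222) and Dcx (0.246). With 3 groups of 3 libraries, such likeness rests mainly on 3 group means.

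Exons of Sp9 overlap those of Cir1 on the opposite strand over 270 bases (5.35%), and exons of Nr2f1 overlap A830082K12Rik over 103 bases (2.17%). A830082K12Rik read 0.638 ± 0.178, 1.245 ± 0.160 and 9.94 ± 1.004 CPM in MEF, iGABA and GAD67, the same order as Nr2f1. Reads in these stretches cannot be assigned to a strand from the table. No member shared exon bases with any gene on its own strand.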

How the data were processed

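RNA of 9 samples was sequenced after dUTP library preparation, per the labels' protocols. The authors deposited whole-number read counts per gene, not normalised, and per the submitters' processing notes worked on mm10 with featureCounts, DESeq 1.10.1 and BWA 0.7.2. What each tool did, the gene annotation and the strandedness of counting were not given in the sources used here. The deposited table also holds exon bases per gene, which served as the length. Symbols were found for 35449 of 37224 genes (95.2%).

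Counts were tested with the quasi-likelihood method of edgeR 4.0.16 (limma 3.58.1, R 4.3.3) on all 9 libraries in 1 fit, with 18085 genes kept by filterByExpr (total of 15 or more, minimum count 10), with TMM scaling and Benjamini-Hochberg adjustment over these genes. The shared biological coefficient of variation was 7.91%. The fit was checked on simulated counts with known changes. Intervals are 95% intervals of the fit. Limits for a count of 0 (3 counts) cover counting error only, since reads without molecular identifiers are not independent molecules.

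Named list genes are the 2 highest and 2 lowest called in a comparison, markers used as checks, and those stated as picked with values known. The 3 nearest genes of each member came from tested genes with a mean of at least 1 CPM (prior count 2 for log2 values). Alternatives were library size alone, RLE size factors, DESeq2 1.42.0, no filter, a filter of 1 CPM in 3 libraries, only the 2 compared groups, and leaving out each library. Promoter windows came from RefSeq (GRCm38.p6), at the listed start nearest the gene's 5′ end in the table. Members and lists were chosen with earlier results of these data known.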

Additional observations from a re-analysis of the deposited data

How the results depend on the processing

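No paired analysis was possible because the replicate numbers of the labels, 1 to 3, 4 to 6 and 7 to 9, are shared by no groups. Each called difference of a member kept its direction and its call under every alternative in which the gene was tested, and the uncalled differences of Sp8 and Adarb2 between iGABA and MEF stayed uncalled. Between iGABA and MEF, the median over all genes went from 0.05 to 0.46 (log2) when library size alone set the scale, and the split of calls went from 7618 higher and 7188 lower to 9941 higher and 5283 lower. Ric3 between iGABA and GAD67 changed sign to -0.002 with RLE size factors, to -0.002 with DESeq2 and to -0.020 without iGABA replicate 5, all uncalled, and ranged from -0.020 to 0.071 over the fits without 1 library. Without division by length, 4, 3 and 4 of the 8 members kept their place in the order of level in MEF, iGABA and GAD67. Leaving out 1 library kept 6 to 8 of 8 places in iGABA and 6 to 8 in GAD67. Sp8, Sp9 and Adarb2 in MEF and iGABA rest on 0 to 23 counts per library, which limits their differences between these groups.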
